A study of Arabidopsis thaliana with 6 samples.

Results

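The genes described here are 10 that set the level of brassinosteroids, the steroid hormones of plants. They were taken by locus identifier from a list that uses no measured value as a criterion, though it was drawn up with earlier results of these data known, and all 10 were found among the 33602 loci of the deposited tables. Of these, 8 act in synthesis (DWF4, CPD, BR6OX1, BR6OX2, ROT3, DET2, DWF1 and DWF5) and 2 in inactivation (BAS1 and SOB7). Whole seedlings of *Arabidopsis thaliana* accession Col were compared with seedlings labelled bbx4-1 in the same accession, after 4 days at 22 °C in continuous red light, in a study of genes regulated by the B-box zinc finger protein BBX4. There were 3 biological replicates of each genotype, which the authors combined into 1 column of FPKM per genotype (fragments normalised to transcript length and to the total mapped). No source used here gives the lesion that bbx4-1 carries.

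Brassinosteroids are made from plant sterols. Reductases first produce campesterol and saturate its ring, and a series of cytochrome P450 enzymes then oxidises the side chain and the rings to give castasterone and brassinolide, the active hormones. The hormone is perceived at the cell surface by the receptor kinase BRI1, and the transcription factors BZR1 and BES1, which it activates, are known to repress several synthesis genes, CPD and DWF4 among them. Other P450 enzymes inactivate brassinosteroids, and BAS1 among them hydroxylates the active hormones. BAS1 and SOB7 were both found in screens for genes that, when overexpressed, suppress the long hypocotyl of a mutant lacking full activity of phytochrome B, the main receptor for red light, which is why brassinosteroid turnover is often studied in seedlings grown in light.

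With 1 combined value per genotype there was no replicate check, no test was run, and every interval below covers counting error only. Fragment numbers were approximated from transfer RNA genes with 1 fragment, which put the summed depth near 48.1 M fragments in the wild-type column and near 49.8 M in the other. BBX4 itself had 88.97 FPKM in wild-type against 1095.7 FPKM in seedlings labelled bbx4-1, 12.3-fold higher (95% counting interval 12.0 to 12.7). The column of these seedlings is headed BBX4, their titles read bbx4-1 and their genotype entry reads BBX4-1. The gene named in these labels was thus higher in the seedlings that carry them. Directions therefore refer to the seedlings as labelled and not to a loss of BBX4 transcript. The tissue label matched its markers: the leaf genes RBCS1A, LHCB2.1, GAPA and PSAD1 summed to 22860 FPKM in wild-type and 22412 in seedlings labelled bbx4-1, and the root genes IRT1, SCR, EXPA7 and PHT1;1 to 222.6 and 183.98. The iron transporter gene IRT1 was lower, at 170.23 and 128.71 FPKM, while SCR was higher, at 14.99 and 17.55, EXPA7 was at 5.09 and 5.8 and PHT1;1 at 32.29 and 31.92. Their part in the values of the 10 genes was not tested. The floral genes AG, AP3, PI and SEP3 lay between 0.03 and 2.18 FPKM in wild-type, and the seed genes CRA1, OLEO1 and SESA3 between 0.03 and 8.87. In whole seedlings, a smaller share of the cells that express a gene and less RNA per cell cannot be told apart.

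None of the 10 genes was 2-fold apart between the columns. All 10 passed the filter of a mean of at least 1 FPKM, which kept 18931 loci, and on the log2(FPKM + 1) scale their differences, bbx4-1 minus wild-type, ran from −0.15 for SOB7 to 0.18 for BR6OX1. Of all loci kept, 0.148% were 2-fold apart on that scale and 9.24% were 1.2-fold apart, and none of the 10 genes reached 1.2-fold on it, although the FPKM ratio of BR6OX1 without the added 1 was 1.24. The 8 synthesis genes had a median log2 difference of 0.098, with 6 above and 2 below 0, and the 2 inactivation genes were both below 0 with a median of −0.083. Over all loci kept, the median was 0.028 (SD across loci 0.175), 59.1% lay above 0, and the central 95% ran from −0.33 to 0.35. Each of the 10 genes lay inside that central range.

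**Figure D1:**
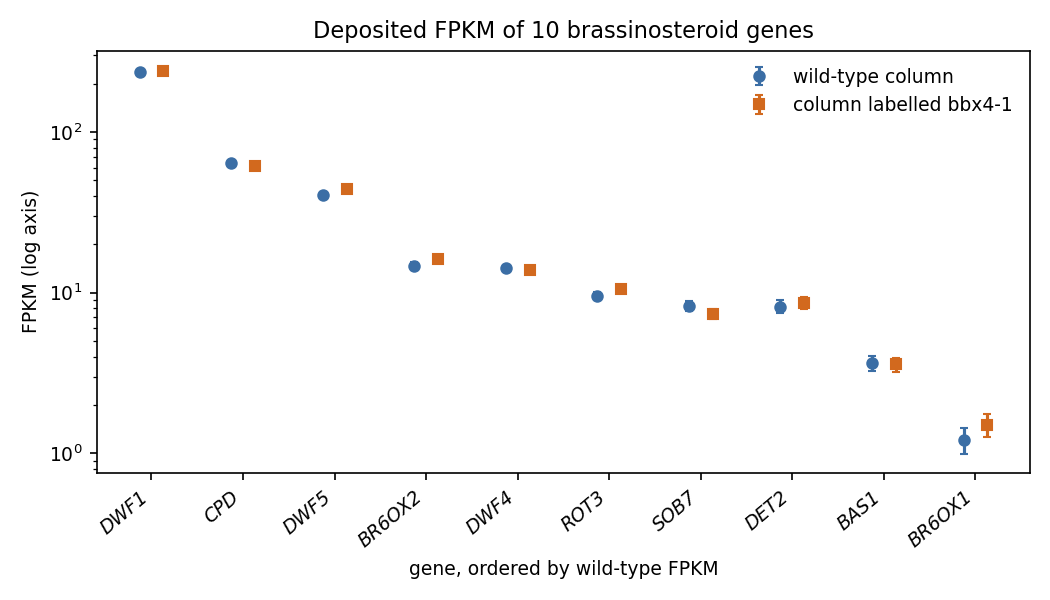
Deposited FPKM (log axis) of the 10 genes in the wild-type column (circles) and in seedlings labelled bbx4-1 (squares), with 95% counting intervals. Levels ran from 1.2 FPKM for BR6OX1 to 236.54 FPKM for DWF1 in wild-type, a spread much wider than any difference between the columns.

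The sterol reductases that supply the pathway differed little. DWF1 (AT3G19820), the reductase that gives campesterol, was the most abundant of the 10 transcripts, at 236.54 FPKM in wild-type and 240.78 in seedlings labelled bbx4-1. It ranked 468th and 466th among all loci. The FPKM ratio, bbx4-1 over wild-type, was 1.02 (95% counting interval 1.002 to 1.03), and the log2 difference of 0.026 turned to −0.014 when the columns were rescaled to a median log2 ratio of 0 over loci with mean FPKM of at least 10. DWF1 thus lay at the middle of all loci by its log2 difference, at percentile 49.2.

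DWF5 (AT1G50430), a sterol reductase that acts just before DWF1, had 40.65 FPKM in wild-type and 44.42 in seedlings labelled bbx4-1. Its ratio of 1.09 (1.04 to 1.15) was above 1 by more than counting error, and it was the only one of the 10 for which this held also after that rescaling. DET2 (AT2G38050), the steroid reductase that saturates the ring system and whose loss gives seedlings a light-grown form in darkness, stood at 8.18 and 8.64 FPKM. The DET2 ratio of 1.06 had an interval from 0.925 to 1.21, so counting error alone allows it to lie on either side of 1.

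Among the 5 P450 genes of synthesis, 2 had ratios below 1 (DWF4 and CPD) and 3 above 1 (ROT3, BR6OX1 and BR6OX2). DWF4 (CYP90B1, AT3G50660), which hydroxylates the side chain in the step regarded as rate-limiting, had 14.26 FPKM in wild-type and 13.85 in seedlings labelled bbx4-1, a ratio of 0.971 (0.912 to 1.03). Its interval included 1. CPD (CYP90A1, AT5G05690), which oxidises the first ring, stood at 64.23 and 61.14 FPKM. Its ratio of 0.952 (0.918 to 0.987) was below 1 by more than counting error, the only such case among the synthesis genes. CPD was 4.504 times as abundant as DWF4 in wild-type (4.28 to 4.74) and 4.41 times in seedlings labelled bbx4-1 (4.19 to 4.65), and these intervals overlap.

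ROT3 (CYP90C1, AT4G36380), a further side chain hydroxylase, was at 9.56 FPKM in wild-type and 10.6 in seedlings labelled bbx4-1, a ratio of 1.109 (1.022 to 1.203). Its relative CYP90D1, which carries out the same reaction, was not among the 10 genes and stood at 3.37 and 3.6 FPKM, a ratio of 1.07 (0.924 to 1.24). ROT3 was 2.84 times as abundant as CYP90D1 in wild-type (2.52 to 3.20) and 2.94 times in seedlings labelled bbx4-1 (2.63 to 3.30).

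The last steps are carried out by the paralogues BR6OX1 (CYP85A1, AT5G38970) and BR6OX2 (CYP85A2, AT3G30180), which oxidise a further ring to give castasterone, and of which BR6OX2 also makes brassinolide. BR6OX2 had 14.63 FPKM in wild-type and 16.15 in seedlings labelled bbx4-1, a ratio of 1.104 (1.03 to 1.19). BR6OX1 was the least abundant of the 10 genes, at 1.2 and 1.49 FPKM, or about 118 and 152 fragments. It had the highest FPKM ratio of the 10, 1.24, but also the widest interval (0.970 to 1.59), which included 1. BR6OX2 made up 92.4% of the summed FPKM of the pair in wild-type and 91.6% in seedlings labelled bbx4-1. Its level was 12.2 times that of BR6OX1 in wild-type (10.1 to 14.8) and 10.8 times in seedlings labelled bbx4-1 (9.17 to 12.9).

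Both inactivating P450 genes had ratios below 1. SOB7 (CYP72C1, AT1G17060) was at 8.25 FPKM in wild-type and 7.34 in seedlings labelled bbx4-1. Its ratio of 0.890 (0.803 to 0.985) was the lowest of the 10 and lay below 1 by more than counting error, and its log2 difference was at percentile 10.8 of all loci kept. BAS1 (CYP734A1, AT2G26710), which hydroxylates the side chain of castasterone and brassinolide, was at 3.62 and 3.57 FPKM, a ratio of 0.986 (0.855 to 1.14). Its interval included 1. SOB7 was 2.28 times as abundant as BAS1 in wild-type (2.02 to 2.58) and 2.06 times in seedlings labelled bbx4-1 (1.82 to 2.33). Together they took 2.96% of the summed FPKM of the 10 genes in wild-type and 2.67% in seedlings labelled bbx4-1.

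**Figure D2:**
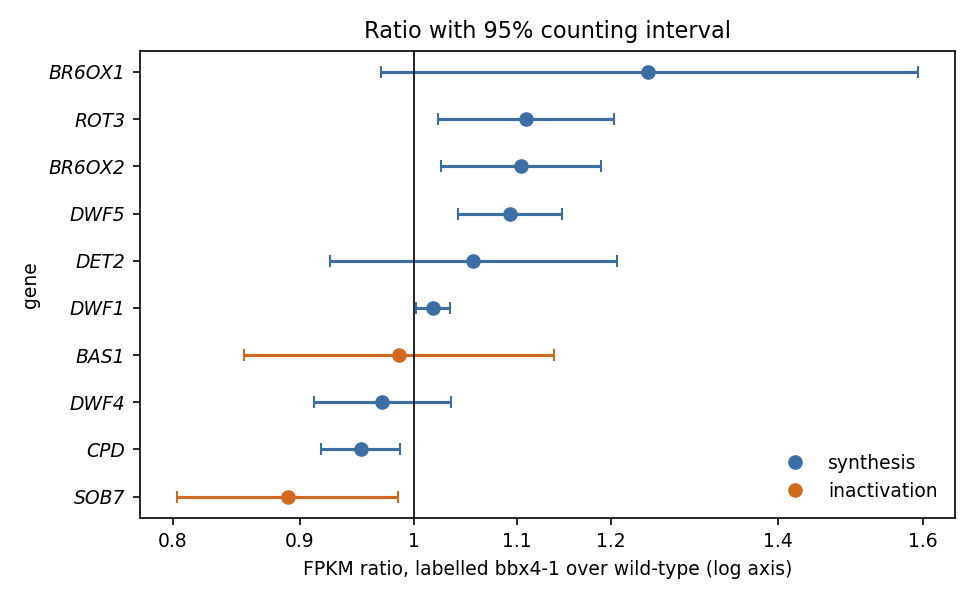
FPKM ratio of seedlings labelled bbx4-1 over wild-type (log axis) for each gene, with its 95% counting interval; blue marks synthesis and orange inactivation genes. ROT3, BR6OX2, DWF5 and DWF1 lie above 1 and CPD and SOB7 below 1 by more than the interval, while the intervals of BR6OX1, DET2, BAS1 and DWF4 include 1.

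By counting error, 4 genes were higher in seedlings labelled bbx4-1 (BR6OX2, ROT3, DWF1 and DWF5) and 2 were lower (CPD and SOB7). Such margins were common in these columns. Of 18741 loci kept with an annotated length, 23.8% were higher and 12.6% lower by the same rule. The share grew with abundance, from 20.8% apart in either direction at mean FPKM 1 to 5 to 72.6% at 100 and over. At mean FPKM 1 to 5, neither BR6OX1 nor BAS1 was apart. At mean FPKM 5 to 20, where 33.2% of loci were apart, 3 of 5 members were (BR6OX2, ROT3 and SOB7). At 20 to 100, where 52.6% were apart, both CPD and DWF5 were, and at 100 and over DWF1 was. At mean FPKM 5 to 20, the log2 difference across loci had a median of 0.029 and an SD of 0.159. The 5 members there ran from −0.15 to 0.14. SOB7, the lowest, lay more than 1 such SD below that median, and the others lay within 1 SD of it. After rescaling so that loci with mean FPKM of at least 10 had a median log2 ratio of 0, which multiplies the FPKM of seedlings labelled bbx4-1 by 0.973, 1 gene (DWF5) stayed higher by counting error and CPD and SOB7 stayed lower.

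**Figure D3:**
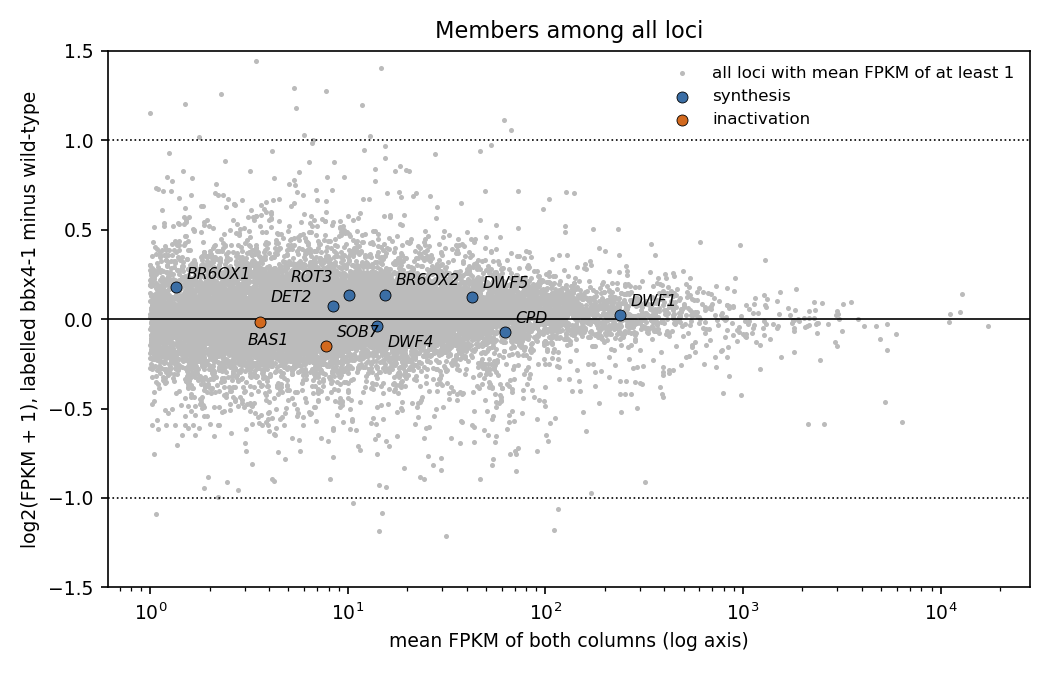
Difference in log2(FPKM + 1), bbx4-1 minus wild-type, against mean FPKM (log axis) for 18924 loci, with the 8 synthesis genes in blue and the 2 inactivation genes in orange. Dotted lines mark 2-fold, 7 loci lie outside the axis, and the 10 genes sit inside the cloud of all loci, between −0.15 and 0.18.

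The order of the genes by FPKM was nearly the same in both columns. DWF1 led, followed by CPD, DWF5, BR6OX2, DWF4 and ROT3, and BAS1 and BR6OX1 came last. DWF1 held 59.0% of the summed FPKM of the 10 genes in each column. SOB7 and DET2 changed places, with SOB7 ahead in wild-type by a ratio of 1.01 (0.896 to 1.14) and DET2 ahead in seedlings labelled bbx4-1 by 1.18 (1.05 to 1.32). BR6OX2 and DWF4 were not apart by counting error in wild-type (ratio 1.03, 0.956 to 1.1) and were apart in seedlings labelled bbx4-1 (1.17, 1.09 to 1.247). All other neighbours in the order were apart by counting error in both columns. Such comparisons between genes depend on the gene lengths that the authors used, and no source used here states them.

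The related genes, in lists that were chosen with earlier results of these data known, gave the setting of the pathway. Of 17 other genes of sterol and brassinosteroid synthesis, all with mean FPKM of at least 1, 3 were higher and 2 lower by counting error. By that rule, 23.8% of all loci kept with a length were higher and 12.6% lower. The median log2 difference of these 17 genes was 0.035. The highest were SMO2-1, a sterol demethylation enzyme, at 0.14 (23.19 to 25.64 FPKM), the sterol isomerase HYD1 at 0.12 and HMG2, a reductase of the mevalonate pathway, at 0.092. The lowest were CPI1, the cyclopropyl isomerase, at −0.12 (13.34 to 12.15 FPKM), the sterol reductase FK at −0.086 and the methyltransferase SMT2 at −0.071. Among 5 other inactivation genes, UGT73C5, which attaches glucose to brassinosteroids, stood apart from the members' range at 14.75 and 19.78 FPKM, a log2 difference of 0.40 and a ratio of 1.34 (1.251 to 1.44). Its tandem neighbour UGT73C6 was at 0.12 (1.49 to 1.7 FPKM), and both values are uncertain where reads of the close copies could not be separated. The reductase BEN1 was at −0.049, and the acyltransferases BAT1 and BIA1 at −0.009 and −0.16 (BIA1 2.54 to 2.16 FPKM), each with an interval of its ratio that included 1.

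Signalling components were spread around 0. Of 20 with mean FPKM of at least 1, 3 were higher and 5 lower by counting error, against 23.8% and 12.6% of all loci. Their median log2 difference was −0.006. BKI1, an inhibitor of BRI1, was highest at 0.15 (8.44 to 9.46 FPKM), followed by BEH2, a relative of BZR1, at 0.076 and the kinase BSK1 at 0.068. The lowest were BRS1, a secreted carboxypeptidase that acts with BRI1, at −0.21 (41.26 to 35.6 FPKM), BEH3, also of the BZR1 family, at −0.16 (4.95 to 4.34 FPKM) and BRI1 at −0.12 (31.77 to 29.15 FPKM).

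Of 7 regulators of the members with mean FPKM of at least 1, 2 were higher and 2 lower by counting error. Among all loci these shares were 23.8% and 12.6%. The median of the 7 regulators was 0.053. PIF5, a bHLH factor that phytochromes inactivate and that is known to activate brassinosteroid synthesis genes, was at −0.29 (34.83 to 28.38 FPKM). Its relative PIF4 was at −0.077 (13.66 to 12.9 FPKM), with a ratio of 0.944 (0.882 to 1.01). ATAF2, a NAC factor that represses BAS1 and SOB7, was at −0.17 (31.01 to 27.43 FPKM), and the clock factor CCA1, which binds with it at BAS1 and SOB7, at 0.16 (38.54 to 43.09 FPKM). BIM1, a partner of BES1, was at 0.093, BRX at 0.097 and ARF7 at 0.053.

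Genes that brassinosteroids are known to regulate had the widest spread of these lists. Of 13 with mean FPKM of at least 1, 5 were higher and 4 lower by counting error, against 23.8% and 12.6% of all loci. Their median was 0.073. The highest were PRE1, a growth-promoting HLH protein, at 0.71 (3.97 to 7.12 FPKM), the bHLH gene BEE1 at 0.42 (12.83 to 17.53 FPKM) and SAUR15 at 0.29 (4.26 to 5.43 FPKM). The lowest were the xyloglucan enzyme gene TCH4 at −1.18 (153.8 to 67.45 FPKM), the growth gene EXO at −1.06 (156.37 to 74.32 FPKM) and BEE3 at −0.23 (12.69 to 10.71 FPKM). TCH4 and EXO were 2-fold apart, and both are also known to respond to other stimuli, touch in the case of TCH4. BEE2, chosen after its value was seen, was at 0.15, so BEE1, BEE2 and BEE3, bHLH genes of 1 family, did not share a direction.

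**Figure D4:**
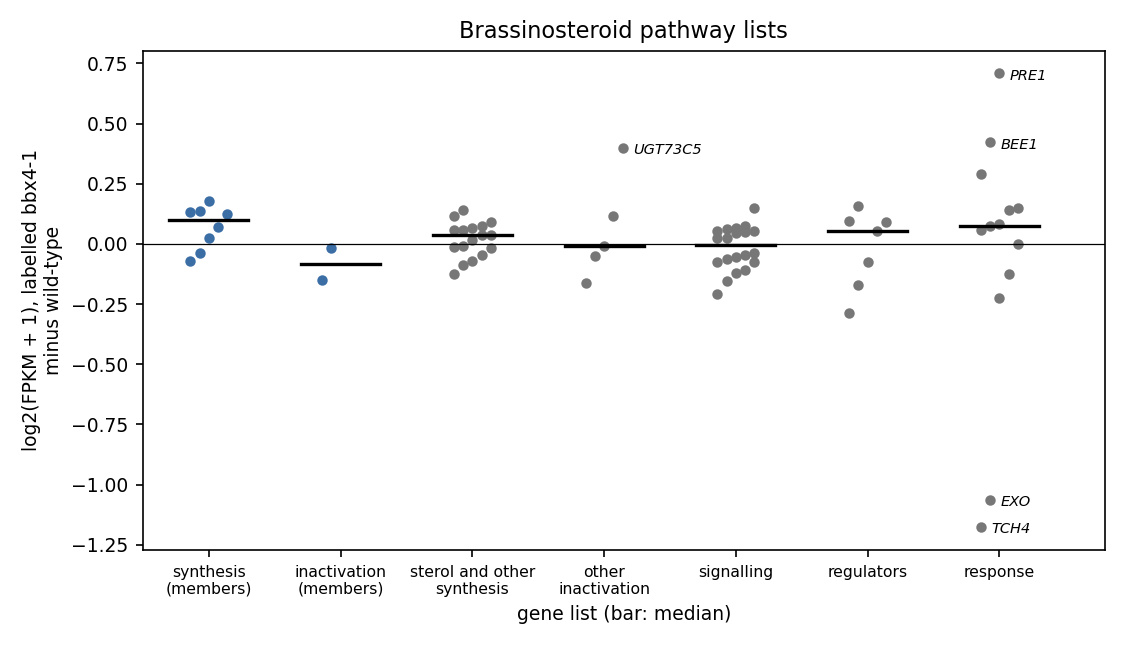
Difference in log2(FPKM + 1), bbx4-1 minus wild-type, for each gene with mean FPKM of at least 1 in 7 lists; bars mark medians, and genes beyond 0.35 are named. The members span −0.15 to 0.18, the response genes −1.18 to 0.71.

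The sequences of the members show how well reads can separate them. By annotation 7 of the 10 are cytochrome P450 genes. In the reading frame of the first annotated transcript, 6 of these hold the haem-binding signature of the family, a run of 10 residues around the cysteine that holds the haem iron. The coding strand of that stretch, 30 bases with the cysteine codon in capitals, is shown for the 6 genes that hold it. Sequences and coordinates are from the TAIR10.1 RefSeq assembly and annotation.
DWF4, chr3:18814412-18814441, reverse strand: tttggaggagggccaaggctaTGTgctggt
CPD, chr5:1703163-1703192, reverse strand: tttggtggagggccaaggctaTGTcccggt
ROT3, chr4:17188514-17188543, reverse strand: tttggtggtgggcaaaggctaTGTcctggt
BR6OX1, chr5:15595195-15595224, reverse strand: tttggaggtgggacaaggcttTGTcctggt
BR6OX2, chr3:11813249-11813278, forward strand: tttggaggtggagttaggcttTGCcctgga
BAS1, chr2:11383216-11383245, forward strand: tttggcctcggagttcgtacaTGCattggt

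DWF4 and CPD shared 27 of these 30 bases, as did CPD and ROT3, while the paralogues BR6OX1 and BR6OX2 shared 24. BAS1, the inactivating enzyme, shared between 14 and 18 with the 5 synthesis genes. The coding sequence annotated for SOB7 encodes 313 residues, against 465 to 524 for the other P450 genes. No match to the signature was found in that reading frame, but in the others the signature cysteine is residue 415 to 463. The 805 bp that follow the SOB7 coding sequence in its transcript were not searched, so SOB7 is not shown to lack the signature. Even in the haem-binding stretch, each pair of the genes shown differed at 3 or more bases. Over whole transcripts, a BLAST search of the nuclear genome found no second copy of any member with at least 95% identity over at least 50 bp. The longest match was between BR6OX1 and BR6OX2, with 81.7% identity over 344 bp, so the 12.2-fold difference in level within this pair is not one between near-identical copies.

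The gene models bear on single values. SOB7 (chromosome 1, 5832094 to 5835488, reverse strand) overlaps AT1G17065 on the opposite strand along 1728 bp. That locus has no value in either column, and no source used here says whether counting used strand. Reads of the 2 strands therefore cannot be told apart in the SOB7 value. DET2 (chromosome 2, 15921136 to 15922321) shares 35 bp with CAC3 on the opposite strand, which was at 86.2 and 88.85 FPKM against 8.18 and 8.64 for DET2. CPD shares 20 bp with MOS7 on the opposite strand (5.53 and 5.39 FPKM), ROT3 shares 83 bp with AT4G36370 on the opposite strand, listed at 0 in both columns, and DWF1 shares 20 bp with AT3G19810 on its own strand (22.14 and 24.91 FPKM). DWF4, the BR6OX pair, DWF5 and BAS1 overlap no annotated gene. DWF4 (chromosome 3, 18813949 to 18817405, reverse strand) has 2 annotated transcripts, the first of 2092 bp, and an exon union of 2844 bp.

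Upstream of the annotated start sites, the members shared letters that bHLH and brassinosteroid-activated factors are known to bind, to differing degrees. The start site used was that of the first annotated transcript. For DWF1, on the reverse strand, it is 6882235, while the annotated gene reaches 6882315. The part of the DWF1 window nearest its start site thus lies inside the annotated gene. In the 250 bp before the start site, the G-box CACGTG occurred in 1 member, DWF5, against 6.57% of 27406 protein-coding genes. The brassinosteroid response elements CGTGTG and CGTGCG were in none of these 10 windows, against 5.39% and 1.54% of all genes. The E-box CANNTG, of which the G-box is a special case, was in 9 of 10, all but BR6OX2, against 55.1%. The E-box form CATGTG, chosen after the matches were seen, was in 5 of 10 (CPD, BR6OX1, DET2, DWF5 and SOB7), against 10.9%. Both strands were searched for each motif. These 5 genes were picked by that form, so their sharing it is not a result about them. The 5 windows of 30 bases that hold it are shown 5′ to 3′ in the direction of the gene. CATGTG, its reverse complement CACATG and CACGTG are in capitals.
CPD, chr5:1707153-1707182, reverse strand: tgattccattacCATGTGcataaaagttaa
BR6OX1, chr5:15598243-15598272, reverse strand: ctctagaattcaCACATGcatatattaccg
DET2, chr2:15922341-15922370, reverse strand: atgaatcgtttaCATGTGaaaaacgacaat
DWF5, chr1:18685685-18685714, reverse strand: aaaCATGTGgagagCACGTGaCACGTGgga
SOB7, chr1:5835581-5835610, reverse strand: atgcaataaagcCACATGcatgtagcgtaa

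The DWF5 window holds 2 copies of the G-box, starting 48 and 41 bp before the start site, and 1 CATGTG 59 bp before it. The 5 genes with this form did not share a direction in the columns. On the log2 scale BR6OX1, DET2 and DWF5 were at 0.18, 0.071 and 0.13, and CPD and SOB7 at −0.070 and −0.15. The counting intervals of the BR6OX1 and DET2 ratios included 1. DWF5 also lies head to head with AT1G50440, whose annotated gene covers 134 bp of the DWF5 upstream window. That neighbour stood at 10.25 and 11.17 FPKM, a log2 difference of 0.11 against 0.13 for DWF5. The only other annotated gene in these windows, PHT4;2, covers 54 bp of the DET2 window and was at −0.22 (1.16 and 0.86 FPKM) against 0.071 for DET2. In 1000 bp, CGTGTG was found in 1 member, ROT3 (17.3% of all genes), CGTGCG in 1, DWF4 (5.09%), and CATGTG in 6 (37.7%), with DWF1 added. These matches describe letters in the reference and do not show that any factor binds there.

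**Figure D5:**
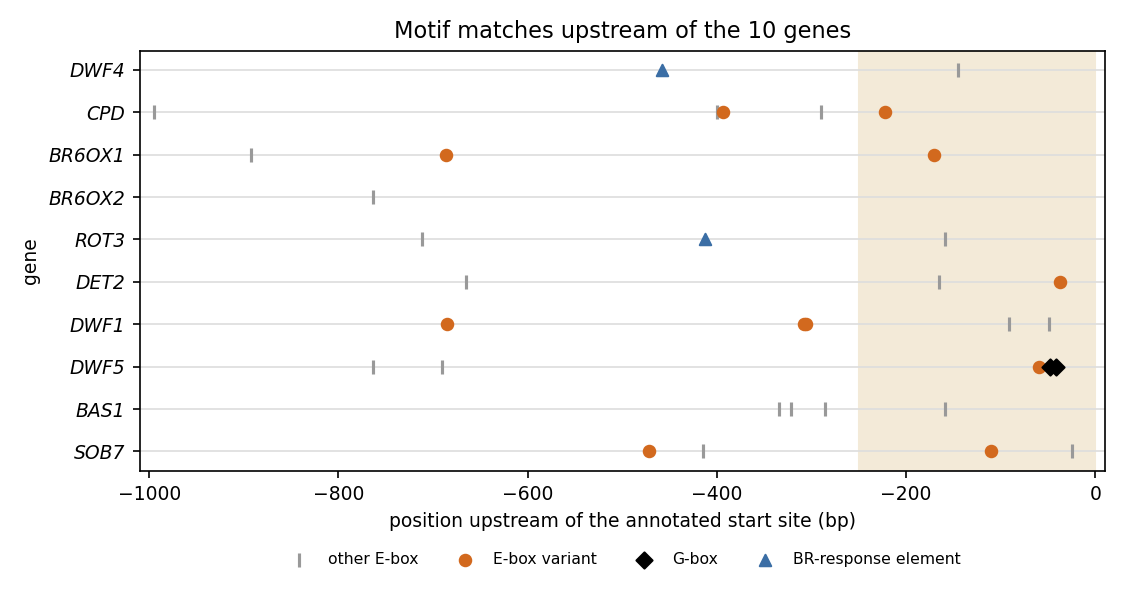
Positions of motif matches in the 1000 bp upstream of the start site of each gene's first annotated transcript (x axis, bp, with the nearest 250 bp shaded). Diamonds mark the 2 G-boxes of DWF5, triangles the brassinosteroid response elements of DWF4 and ROT3, and bars other E-boxes. Orange circles mark the E-box variant CATGTG, chosen after the matches were seen. In the nearest 250 bp it was found in 5 of the 10 genes and in 10.9% of all protein-coding genes.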

How the data were processed

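Poly(A) RNA of 6 seedling samples, 3 per genotype, was sequenced. The authors deposited 2 tables of FPKM, 1 combined column per genotype, per the labels and the series' design text. Per the submitters' processing notes, the tools were HISAT2 2.1.0 and edgeR 3.0.8 with genome build TAIR10; their roles, the counting tool, the annotation, the use of strand and any filter are not stated there. Combining removes the spread between replicates, so no test was possible from these tables. PCR copies could not be told apart.

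Values were compared as log2(FPKM + 1), which understates changes of low genes, for loci averaging 1 FPKM or more. Approximate fragment numbers are FPKM times exon length (TAIR10.1 RefSeq annotation) divided by the median of that product over transfer RNA genes of at most 75 bp with 1 fragment (20 and 18 genes, the values within 1.3 times the lowest). Intervals of FPKM ratios are 95% intervals by the Clopper-Pearson formula on those approximate numbers. Their coverage was checked only on simulated Poisson counts that used the same exon lengths and no spread between replicates. That cannot check the authors' lengths or the real spread. The intervals cover counting error only, and the exon lengths used may differ from the authors'. Of 96 list entries, 94 matched the annotation by locus and symbol and 2 were dropped. The 10 members are all named; from the other lists all genes kept are named or, with more than 8, the 3 highest and 3 lowest by log2 difference. Members and lists were chosen with earlier results of these data known. With 2 columns, no genes were ranked by likeness of pattern. Python 3.11.15, SciPy 1.17.1, Biopython 1.88 and BLAST+ 2.17.0 were used. Pseudocounts, filters, scalings, lengths and depth were varied.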

Additional observations from a re-analysis of the deposited data

How the results depend on the processing

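No paired analysis was possible because the tables hold 1 combined column per genotype, and for the same reason no replicate could be left out. Over pseudocounts of 0.1 and 5, 2 rescalings, no filter and a filter at mean FPKM 5, the median log2 difference of the synthesis genes ranged from 0.058 to 0.10 and that of the inactivation genes from −0.149 to −0.056, and no member became 2-fold apart. The filter at 5 dropped BAS1 and BR6OX1. Rescaling the columns to a median log2 ratio of 0 over loci with mean FPKM of at least 10, a shift of −0.040 before the pseudocount, turned DWF1 to −0.014 and lowered the number of members higher by counting error from 4 to 1. Rescaling to equal nuclear sums, a shift of −0.019 before the pseudocount, left 3 higher. CPD and SOB7 were the members lower by counting error in every setting, including lengths of the longest or, added after seeing the data, the first transcript, and a depth 10% higher or lower. BR6OX1 moved most with the pseudocount, from 0.29 at 0.1 to 0.066 at 5. Depth limits BR6OX1 most: its 118 and 152 fragments cannot show a difference of the size seen for DWF5.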

Other observations

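Genes of the related lists with mean FPKM under 1 were left out of the counts above, and the following were chosen after their values were seen. BSU1, a phosphatase of brassinosteroid signalling, had 0.5 FPKM in wild-type and 1.01 in seedlings labelled bbx4-1, a ratio of 2.02 (95% counting interval 1.502 to 2.74). On the log2(FPKM + 1) scale used for 2-fold above, BSU1 was at 0.42, short of 2-fold. The shares of all loci given above cover only loci with mean FPKM of at least 1, so none applies to BSU1. The other members of the BSU1 family lay between ratios of 0.966 for BSL1 and 1.05 for BSL3, each with an interval that included 1. LOB, a boundary factor known to activate BAS1, was at 0.85 and 1.06 FPKM, a ratio of 1.247 (0.854 to 1.83). TCP1, an activator of DWF4, was listed at 0 in wild-type and at 0.07 FPKM in seedlings labelled bbx4-1, and CES, an activator of CPD, at 0.02 FPKM in both.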
